A study of Mus musculus with 2 samples.

Results

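The data are the polyA-selected transcriptomes of 2 mouse embryonic stem cell (mESC) libraries that lack functional Dicer, the RNase III enzyme that makes mature miRNAs and siRNAs. The genes described are 10 genes of the immunoproteasome and of class I antigen presentation, out of 43629 genes listed in each library, namely Psmb8, Psmb9, Psmb10, Tap1, Tap2, Tapbp, H2-K1, H2-D1, B2m and Nlrc5. They were chosen from the pathway with their counts in these libraries already known, so their levels and ratios are descriptions and carry no test. All 10 were found in both libraries by their Ensembl identifiers, and all 10 averaged 10 counts or more, the minimum set for a ratio (enough counts). Both libraries come from Dicer knockout mESCs on a 129/Ola background, derived from E14TG2a, an established mESC line, and grown in serum with leukemia inhibitory factor. Replicate 1 was taken at passage 7 and replicate 2 at passage 4. The study deleted parts of Dicer with paired CRISPR/Cas9 guides and isolated clones of 2 separate deletions, but the labels do not say which library carries which deletion. Clone, passage and library therefore cannot be told apart, and any difference between the replicates has no replicate check. Wild-type libraries were not analysed here.

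Proteasomes cut cellular proteins into peptides. In the immunoproteasome, the catalytic subunits of the constitutive core are replaced by inducible ones, encoded by Psmb8, Psmb9 and Psmb10. The peptides are carried into the endoplasmic reticulum by the transporter made of TAP1 and TAP2, which tapasin, the product of Tapbp, holds next to empty class I molecules. A class I molecule consists of a heavy chain, here H2-K1 or H2-D1, and the light chain beta-2 microglobulin, encoded by B2m. NLRC5 is a transactivator of class I genes, and interferons induce most genes of the pathway. Pluripotent stem cells are known for low levels of class I molecules at their surface.

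Of the 10 genes, 7 lie on chromosome 17 in the mouse major histocompatibility complex (GRCm38, positions from GENCODE M21). Psmb9 (ENSMUSG00000096727, minus strand, 34181987 to 34187764), Tap1 (ENSMUSG00000037321, plus strand, 34187553 to 34197225), Psmb8 (ENSMUSG00000024338, plus strand, 34197721 to 34201454) and Tap2 (ENSMUSG00000024339, plus strand, 34203527 to 34216321) lie side by side. H2-K1 (ENSMUSG00000061232, minus strand, 33996017 to 34000347) and Tapbp (ENSMUSG00000024308, plus strand, 33915899 to 33929292) lie on one side of these 4 genes, and H2-D1 (ENSMUSG00000073411, plus strand, 35262730 to 35267499) on the other. B2m (ENSMUSG00000060802) lies on the plus strand of chromosome 2 from 122147686 to 122153083. Psmb10 (ENSMUSG00000031897, minus strand, 105935735 to 105938444) and Nlrc5 (ENSMUSG00000074151, plus strand, 94434356 to 94527272) lie on chromosome 8.

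Promoter sequences from RefSeq (GRCm38.p6) were matched by symbol for 8 of the 10 genes, and Tap2 and Nlrc5 are named only. Each window covers 250 bases before the transcription start and 50 bases after it, and the bases before the start are shown. The RefSeq starts can lie inside the GENCODE bounds given above, as for H2-D1, Psmb8, Psmb9 and Tapbp. The stretches shown before H2-D1 and between Psmb9 and Tap1 thus lie within the GENCODE bounds of H2-D1 and Psmb9. The letters searched on both strands were GAAANNGAAA, the core of the interferon-stimulated response element (ISRE), TTCNNNGAA, the gamma-activated site (GAS), a motif of interferon-induced genes, and CCAAT, the box bound by NF-Y. The sequences below were chosen because Psmb9 and Tap1 start close together on opposite strands, because H2-K1 and H2-D1 are paralogs, and because B2m was the only one of the 8 genes with the ISRE core. Capitals mark the ISRE core and CCAAT on either strand, where CCAAT on the other strand reads ATTGG.
Between the starts of Psmb9 and Tap1 (chr17:34187331-34187555, plus strand, read towards Tap1): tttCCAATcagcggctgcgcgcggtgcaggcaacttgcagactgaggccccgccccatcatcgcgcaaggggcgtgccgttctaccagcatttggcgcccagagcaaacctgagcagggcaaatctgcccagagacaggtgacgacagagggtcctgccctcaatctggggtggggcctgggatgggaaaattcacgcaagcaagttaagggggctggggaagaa
Before B2m (chr2:122147437-122147686, plus strand): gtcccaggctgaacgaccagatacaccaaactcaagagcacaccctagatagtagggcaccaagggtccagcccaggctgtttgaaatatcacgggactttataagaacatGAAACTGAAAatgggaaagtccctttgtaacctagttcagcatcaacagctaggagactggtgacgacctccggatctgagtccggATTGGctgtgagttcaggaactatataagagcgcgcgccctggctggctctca
Before H2-K1 (chr17:34000334-34000583, minus strand): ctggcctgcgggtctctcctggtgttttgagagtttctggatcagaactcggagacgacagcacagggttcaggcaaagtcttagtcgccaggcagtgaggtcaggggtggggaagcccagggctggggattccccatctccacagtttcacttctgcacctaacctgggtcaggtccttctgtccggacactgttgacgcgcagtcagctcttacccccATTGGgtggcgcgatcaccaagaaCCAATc
Before H2-D1 (chr17:35262844-35263093, plus strand): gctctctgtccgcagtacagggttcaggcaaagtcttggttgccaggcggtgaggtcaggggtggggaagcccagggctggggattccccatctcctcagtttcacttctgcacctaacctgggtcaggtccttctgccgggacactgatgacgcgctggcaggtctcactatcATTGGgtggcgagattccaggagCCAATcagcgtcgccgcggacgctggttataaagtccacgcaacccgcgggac

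Only 225 bases separated the RefSeq start sites of Psmb9 and Tap1. In the B2m window the ISRE core began 139 bases and the CCAAT box 53 bases before the start. The stretches before H2-K1 and H2-D1 were identical in 172 of 192 aligned columns (89.6%), and the longest run they shared had 47 bases. Each held a CCAAT box on both strands, 30 and 6 bases before the start in H2-K1 and 76 and 53 bases before it in H2-D1. A second RefSeq start of H2-K1 lies between these boxes, one 16 bases before it and the other 8 bases after it. The CCAAT box was in the windows of 6 of the 8 genes. Psmb9 and Tap1 are both counted for the same box, 8 bases before the start of Psmb9 and 222 before that of Tap1. Of all 32851 promoter windows, 37.4% held the CCAAT box, a share of windows and not of genes. The GAS letters were in 1 of the 8, that of Psmb8 at 97 bases before its start, and in 8.30% of all windows, and the ISRE core was in 3.44% of all windows. These matches describe letters and not bound sites, and missing letters say nothing about a factor.

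The libraries held 41710122 counts on genes in replicate 1 and 41566184 in replicate 2, so that 3 counts correspond to 0.0719 and 0.0722 CPM (counts per 1000000 counts). As a check of the genotype, Dicer1 had 1343 counts in replicate 1 and 1510 in replicate 2, reads that the gene total does not place inside or outside the deleted parts. Pluripotency genes were abundant in both libraries. Within 2-fold between the libraries were 6 of 6 marker genes, and 13985 of the 17788 genes with enough counts. In replicates 1 and 2, Pou5f1 was at 937 and 1040 CPM, Sox2 at 635 and 514, and Esrrb at 565 and 544. Zfp42 was at 451 and 519 CPM, Klf4 at 89.9 and 61.6, and Nanog stood furthest apart at 1140 and 631. Counts of replicate 2 were scaled to replicate 1 by the trimmed mean of M values (TMM), a factor of 1.09, and log2 ratios of replicate 1 over replicate 2 were taken after adding a pseudocount of 1. The median log2 ratio over the 17788 genes with enough counts was 0.02, with quartiles of -0.38 and 0.54. Scaling by total counts instead moved that median to 0.14, a shift that applies to the pathway genes as well. Intervals are 95% intervals (Wilson for CPM, exact binomial for ratios) that cover counting error only.

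Expression of all 10 genes was higher in replicate 1 than in replicate 2 under each of the 4 scalings tried, where 51.3% of the 17788 genes with enough counts had a log2 ratio above 0. The median log2 ratio of the 10 genes was 0.96, against 0.02 over all genes with enough counts. More than 2-fold higher in replicate 1 were 5 of the 10 genes (Psmb8, Tap2, Psmb9, H2-K1 and Tap1), where 14.2% of the 17788 genes passed the same fold, and none was more than 2-fold lower, where 7.14% of the 17788 genes were. More than 4-fold higher were 2 of the 10, Psmb8 and Tap2, where 4.17% of the 17788 genes were. The counting intervals of the CPM did not overlap between the libraries for 9 of the 10 genes, Nlrc5 being the exception, and for 40.6% of the 17788 genes in the same direction. In bulk RNA, fewer cells that express a gene and less RNA of it in each cell cannot be told apart.

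**Figure D1:**
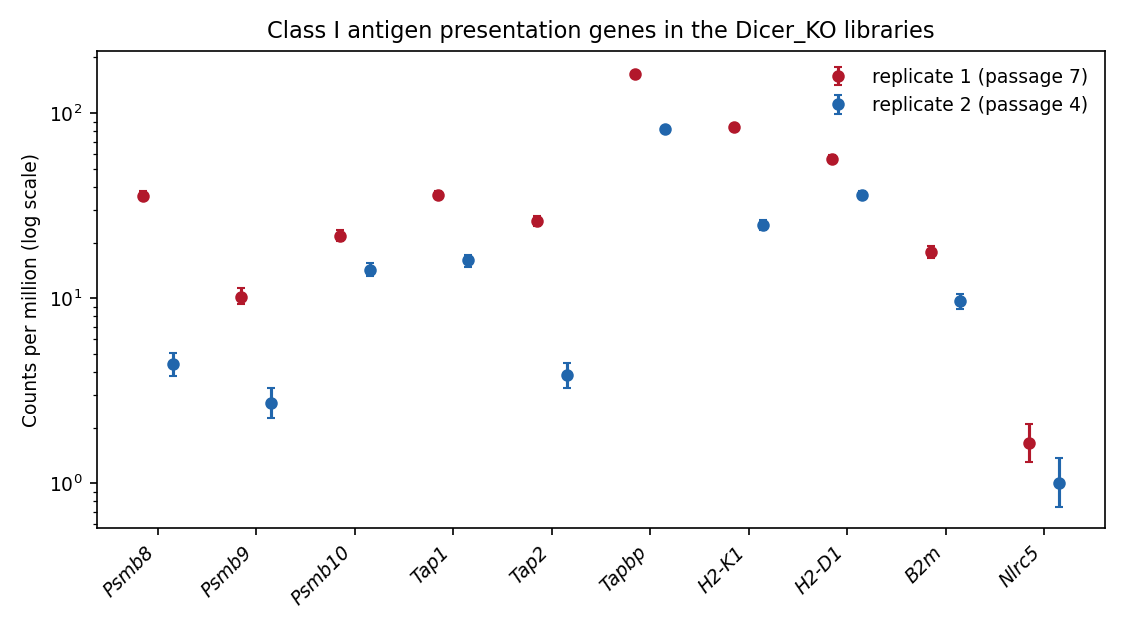
Level of each of the 10 genes in CPM (log axis) in replicate 1 (red) and replicate 2 (blue), with 95% Wilson intervals for counting error. All 10 genes lie higher in replicate 1, from Nlrc5 at 1.65 and 1.01 to Tapbp at 162 and 81.9.

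Among the immunoproteasome subunits, Psmb8 stood furthest apart between the libraries. Psmb8, whose product takes the chymotrypsin-like position, was at 35.9 CPM (1497 counts, interval 34.1 to 37.8) in replicate 1 and at 4.40 CPM (183 counts, interval 3.81 to 5.09) in replicate 2. Its log2 ratio was 2.90 (interval 2.69 to 3.14), a 7.48-fold difference that 232 of the 17788 genes reached. Psmb9, which takes the caspase-like position, had 427 counts (10.2 CPM) in replicate 1 and 113 (2.72 CPM) in replicate 2, with a log2 ratio of 1.79 (interval 1.49 to 2.11). Psmb10, which takes the trypsin-like position, was the least different of the 3. It had 909 counts (21.8 CPM) in replicate 1 and 595 (14.3 CPM) in replicate 2, with a log2 ratio of 0.49 (interval 0.34 to 0.64). The intervals of the 3 ratios did not overlap each other, so the subunits differed between the libraries by unequal amounts beyond counting error.

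The constitutive subunits at the same positions were not higher in replicate 1. Psmb5, the constitutive chymotrypsin-like subunit, had 1148 and 1289 counts in replicates 1 and 2, with a log2 ratio of -0.29. Psmb6, the counterpart of Psmb9, had 6875 and 8996 counts, with a log2 ratio of -0.51. Psmb7, the counterpart of Psmb10, had 6931 and 7913 counts, with a log2 ratio of -0.31. All 3 were lower in replicate 1 under each scaling, and none differed by 2-fold. Of the 11 other subunits of the 20S core, 11 were within 2-fold, where 13985 of the 17788 genes with enough counts were. Their median log2 ratio was -0.35, with a range of -0.49 to 0.01. Psmb1 and Psma6, 2 of the 3 subunits with the most counts, had log2 ratios of -0.09 and -0.36, and Psma7, with the largest difference, had -0.49. By total counts 4 of the 11 were above 0 in place of 1. Higher levels in replicate 1 were thus seen for the 3 inducible subunits, and not for most subunits of the core.

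Set against its constitutive partner within the same library, each inducible subunit took a larger share in replicate 1. The share was computed from counts per kb of exon, which needs no scaling between libraries. Psmb8 made up 25.7% (interval 24.3 to 27.3) of the sum of Psmb8 and Psmb5 in replicate 1 and 3.64% (3.12 to 4.22) in replicate 2, or 14.7% ± 15.6 (SD, n = 2). Psmb9 made up 3.08% of its pair with Psmb6 in replicate 1 and 0.638% in replicate 2. Psmb10 made up 20.8% of its pair with Psmb7 in replicate 1 and 13.1% in replicate 2, and for none of the 3 pairs did the interval of one library reach that of the other. The constitutive RNA was thus the more abundant of each pair per length in both libraries. With raw counts and no length correction, Psmb8 rose to 56.6% of its pair in replicate 1 and to 12.4% in replicate 2, so the majority at this position depends on the length used. Psmb5 shares 54.1% of its 50-base words with transcripts of other genes, mostly with Gm3375, so its count is uncertain. The order of the libraries was the same for all 3 pairs with each of the 3 lengths tried.

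**Figure D2:**
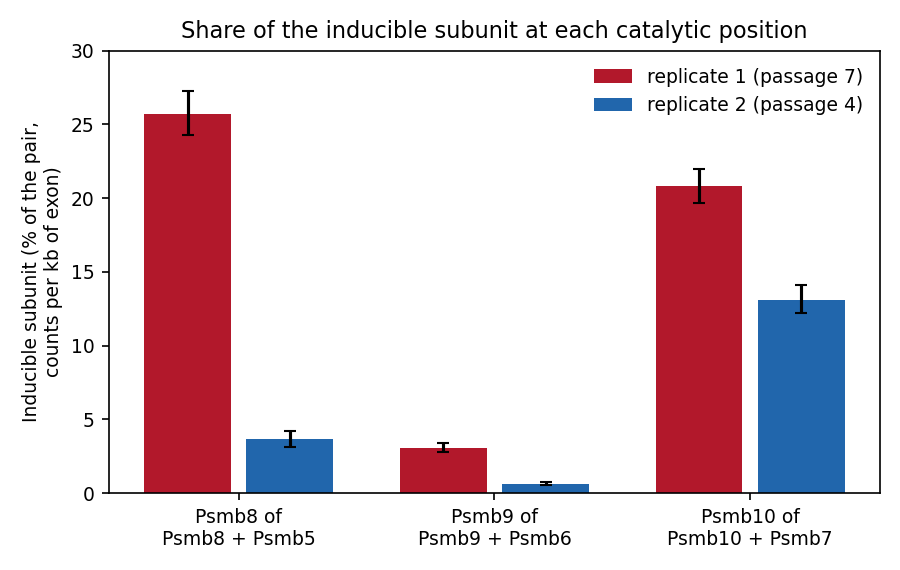
Share of the inducible subunit in the sum with its constitutive partner, in percent of counts per kb of exon, in replicate 1 (red) and replicate 2 (blue), with exact 95% intervals for counting error. The bars of replicate 1 are higher at each position, with 25.7% against 3.64% for Psmb8.

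The transporter subunits differed from each other in how far the libraries stood apart. Tap2 had 1095 counts (26.3 CPM, interval 24.7 to 27.9) in replicate 1 and 159 (3.83 CPM, interval 3.28 to 4.47) in replicate 2. Its log2 ratio of 2.65 (interval 2.42 to 2.91) overlapped that of Psmb8. Tap1 had 1501 counts (36.0 CPM) in replicate 1 and 664 (16.0 CPM) in replicate 2, with a log2 ratio of 1.05 (interval 0.92 to 1.19). Although both proteins form 1 transporter, the interval of Tap1 lay below that of Tap2. Per kb of exon the transcripts were close to each other in replicate 1, at 6.57 CPM for Tap1 and 6.94 CPM for Tap2, and apart in replicate 2, at 2.92 and 1.01 CPM. Tap1 and Psmb9, whose starts lie next to each other, also differed in their ratios, with intervals that did not overlap. Tapbp, which encodes tapasin, was the most abundant of the 10 genes per length, with 6771 counts (162 CPM) in replicate 1 and 3406 (81.9 CPM) in replicate 2. Its log2 ratio was 0.87 (interval 0.81 to 0.93), just short of 2-fold, where Tap1 was just past it.

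Both heavy chains and the light chain were higher in replicate 1, by unequal amounts. H2-K1 had 3506 counts (84.1 CPM, interval 81.3 to 86.9) in replicate 1 and 1037 (24.9 CPM, interval 23.5 to 26.5) in replicate 2, with a log2 ratio of 1.63 (interval 1.53 to 1.74). H2-D1 had 2372 counts (56.9 CPM) in replicate 1 and 1504 (36.2 CPM) in replicate 2, with a log2 ratio of 0.53 (interval 0.44 to 0.63). The order of the heavy chains was thus not the same in the libraries. Per kb of exon, H2-K1 was at 1.30 times the level of H2-D1 in replicate 1 and at 0.605 times in replicate 2. B2m had 744 counts (17.8 CPM) in replicate 1 and 401 (9.65 CPM) in replicate 2, with a log2 ratio of 0.77 (interval 0.59 to 0.95). Relative to B2m per kb of exon, H2-K1 was at 1.38 and 0.757 and H2-D1 at 1.06 and 1.25 in replicates 1 and 2. Of the 50-base words of H2-K1 transcripts, 9.63% also occur in transcripts of other genes, most often H2-Q10, and of those of H2-D1 12.8%, most often H2-Q1. How reads with several alignments were counted is not stated, so some of the heavy chain counts could belong to relatives. For B2m, Psmb9, Psmb10 and Nlrc5 that share was 0.

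Nlrc5, the class I transactivator, was near the low end of the genes with enough counts. It had 69 counts (1.65 CPM, interval 1.31 to 2.09) in replicate 1 and 42 (1.01 CPM, interval 0.748 to 1.37) in replicate 2. The log2 ratio of 0.58 had an interval of 0.02 to 1.18, which leaves its size poorly known at this depth. Only 6.89% of the genes with enough counts had a lower mean level per kb of exon.

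**Figure D3:**
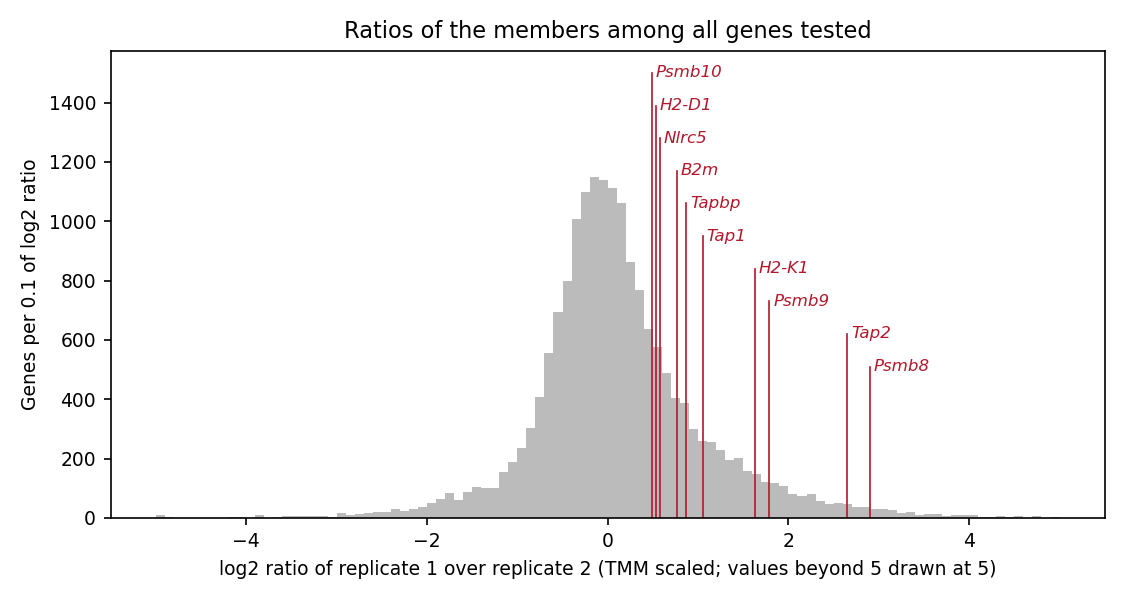
Histogram of the log2 ratio of replicate 1 over replicate 2 for the 17788 genes with enough counts (grey, genes per 0.1 of log2 ratio), with a red line at the ratio of each of the 10 genes. The heights of the lines only space the names. All 10 lie to the right of 0, from Psmb10 at 0.49 to Psmb8 at 2.90.

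Over both libraries, the genes ranked by mean CPM per kb of exon as Tapbp with 33.7 ± 15.7, H2-K1 with 18.6 ± 14.2, H2-D1 with 18.0 ± 5.67, B2m with 16.0 ± 6.73 and Psmb10 with 10.6 ± 3.10 (SD, n = 2 each). Below them were Psmb8 with 5.96 ± 6.59, Tap1 with 4.74 ± 2.58, Tap2 with 3.98 ± 4.19, Psmb9 with 1.77 ± 1.45 and Nlrc5 with 0.157 ± 0.0536. Of the neighbours in this order, only Psmb9 and Nlrc5 differed by more than the larger of their SDs. These SDs include the higher level of all these genes in replicate 1. Within each library the order of adjacent genes was kept, except for H2-K1 and H2-D1, Psmb8 and Tap1, and Tap1 and Tap2. Tapbp lay above 90.5% of the genes with enough counts and Psmb9 above 34.3%.

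Other genes of the pathway, from lists chosen with earlier results of these data known, fell into those higher in replicate 1 and those that were not. Of 9 proteasome activators and assembly factors, 1 was more than 2-fold higher in replicate 1, Psme1 with 7035 counts in replicate 1 and 2593 in replicate 2 (log2 ratio 1.32). Psme1 and Psme2 encode the interferon-inducible PA28 activator, and Psme2 had 2105 and 1301 counts (log2 ratio 0.57). The activators Psme3 and Psme4, which are not part of that complex, had log2 ratios of -0.25 and -0.54. The median of this list was 0.07, and its 1 gene of 9 is near the 14.2% of all genes.

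Of the 6 genes of peptide loading and trimming in the endoplasmic reticulum, only Tapbpl was more than 2-fold higher, by little, a share near the 14.2% of all genes. Tapbpl, which encodes the tapasin-related TAPBPR, had 169 counts in replicate 1 and 76 in replicate 2 (log2 ratio 1.02). Erap1, which trims peptides to the length that class I molecules bind, had 2555 and 1461 counts (log2 ratio 0.68, interval 0.59 to 0.78). The general chaperones Calr, Canx and Pdia3, which also fold proteins outside this pathway, had log2 ratios of 0.12, -0.03 and -0.09. By total counts 5 of the 6 genes were above 0 in place of 3. Lnpep, a trimming enzyme of endosomes, was lower in replicate 1, with 3730 and 5834 counts (log2 ratio -0.77).

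Of 17 other class I heavy chain genes, 16 had enough counts, and 12 of the 16 were more than 2-fold higher in replicate 1, with a median log2 ratio of 2.28, where 14.2% of all genes with enough counts were. Among the 12, H2-Q1, H2-T3, H2-T23 and H2-T24 had 3 or 4 counts in replicate 2. They reached the minimum only through replicate 1, which raises both the number and the median. With a mean of at least 50 counts required, fewer genes entered and 7 were more than 2-fold higher. The share of all genes at that minimum was not computed. H2-Bl had 3233 counts in replicate 1 and 361 in replicate 2 (log2 ratio 3.04), H2-T10 had 262 and 12 (4.23), and H2-Q7 had 383 and 29 (3.56). These genes share much sequence, with 32.9% of the 50-base words of H2-T10 and 26.4% of those of H2-Q7 also found in other genes, so single counts among them are uncertain. H2-Q4, with 1476 and 828 counts, had a log2 ratio of 0.71. H2-M5, the most counted gene of the list, was the 1 gene more than 2-fold lower, with 3751 counts in replicate 1 and 7985 in replicate 2 (log2 ratio -1.21), although only 0.886% of its words occur elsewhere. With H2-M5 included, the summed level of the 17 genes was 281 CPM in replicate 1 and 245 CPM in replicate 2.

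The class II pathway, which presents peptides to helper T cells, was sparsely counted. Of its 11 genes 7 had enough counts, of which 4 were more than 2-fold higher in replicate 1 and 1 more than 2-fold lower, against 14.2% and 7.14% of all genes. Cd74, the invariant chain, had 1066 counts in replicate 1 and 401 in replicate 2 (log2 ratio 1.29), H2-Oa had 144 and 12 (3.37), and H2-Ab1 had 81 and 13 (2.44). H2-Eb1 went the other way, with 111 and 254 counts (-1.31). H2-DMb2 and H2-Ob had 0 counts in both libraries, with the floor of 3 counts at 0.0719 and 0.0722 CPM.

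**Figure D4:**
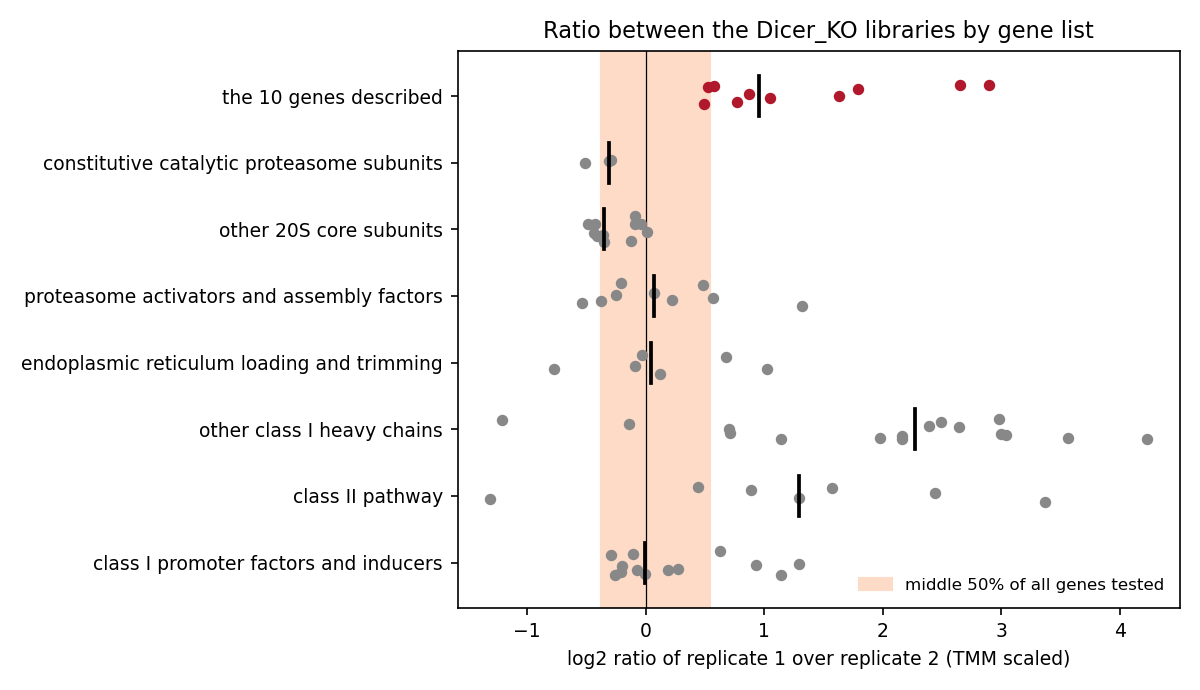
Log2 ratio of replicate 1 over replicate 2 (TMM scaled) for each gene with enough counts, by list, with black bars at the medians and a band for the middle 50% of all such genes (-0.38 to 0.54). The 10 genes (red) and the other class I heavy chains lie mostly to the right of the band, with medians of 0.96 and 2.28, while the constitutive and core proteasome subunits lie at -0.31 and -0.35.

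Among 15 genes of factors that bind class I promoters or induce them, 13 had enough counts and 2 were more than 2-fold higher in replicate 1, a share near the 14.2% of all genes. These were Rfxap, a subunit of the RFX complex, with 238 counts in replicate 1 and 89 in replicate 2 (log2 ratio 1.29), and Irf2, an interferon regulatory factor, with 1181 and 491 (1.14). Irf1, an activator of class I genes, had 4724 and 2282 counts (0.93). The most counted factors, Atf1, Creb1 and Nfya, had log2 ratios of -0.20, -0.26 and -0.29. The genes that follow were picked after their values had been seen. The interferon gene Ifnb1 had 1 count in replicate 1 and 0 in replicate 2, and Ifng had 1 and 2, all under the 3 counts taken as the floor.

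The 7 genes on chromosome 17 were set against their surroundings. Within 1 Mb of Psmb8, 82 other coding genes had enough counts, and their median log2 ratio was 0.08, against 1.71 for the 6 genes of the pathway in the same window (H2-D1 lies outside it). Of the 82, 10 were more than 2-fold higher in replicate 1 and 2 more than 2-fold lower, shares no larger than the 14.2% and 7.14% of all genes. The 3 furthest apart were H2-Oa (3.37), H2-Ab1 (2.44) and the heat shock gene Hspa1a (2.35, from 364 and 65 counts). Without the class I and class II families the median of 77 neighbours was 0.07. The 855 genes of chromosome 17 with enough counts other than the 7 genes, the other class I and class II genes included, had a median of 0.05. Among the flanking genes, named for their position, Daxx and Rgl2 on either side of Tapbp had log2 ratios of -0.22 and -0.32. Zbtb22, which overlaps Tapbp, had -0.03. Vps52 and Ring1 on either side of H2-K1 had -0.44 and 0.53. H2-DMb1, next to Psmb9, had 0.44, and H2-Ob, next to Tap2, had 0 counts in both libraries. Most of the 82 neighbours, 70 genes, were within 2-fold, where 13985 of all 17788 genes with enough counts were.

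**Figure D5:**
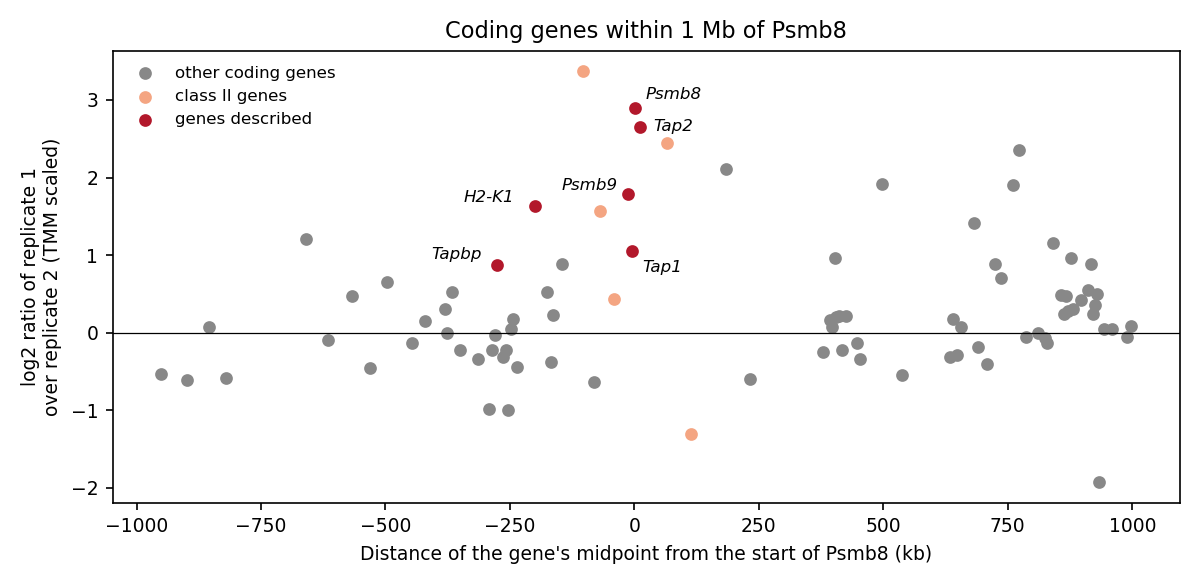
Log2 ratio of replicate 1 over replicate 2 (TMM scaled) of coding genes with enough counts within 1 Mb of Psmb8, against the distance of each gene's midpoint from the start of Psmb8 in kb. Genes of the pathway (red) lie between 0.87 and 2.90, class II genes (orange) between -1.31 and 3.37, and the 77 other genes (grey) have a median of 0.07.

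Some of these genes share exon positions with others, and the strand setting of the counting is not stated, although the libraries were prepared by a stranded protocol. Reads on overlapping positions were left out by the authors. Psmb9 and Tap1 share 212 exon bases on opposite strands, 5.79% of Psmb9 and 3.87% of Tap1. Gm20496, antisense to Psmb8 and Tap2, had 6 counts in replicate 1 and 1 in replicate 2, and Gm15821, inside Tap2, had 1 and 0. Tapbp shares 149 bases with Zbtb22 on the same strand, which had 986 and 923 counts, and 904 bases with the antisense gene Gm19412, which had 45 and 33.

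Some markers of other cell types were also higher in replicate 1, and their part in the results above was not tested. The numbers of markers below stand beside 14.2% of the 17788 genes with enough counts that were more than 2-fold higher. Of 6 trophoblast markers, 5 had enough counts and 5 were more than 2-fold higher, with a summed level of 456 CPM in replicate 1 and 86.3 CPM in replicate 2. Nearly all of it came from Krt8 (192 and 33.0 CPM), Krt18 (172 and 21.2 CPM) and Tfap2c (89.7 and 31.5 CPM), while Cdx2 had 6 counts and 1 count. Of 8 fibroblast markers, 3 had enough counts and 1, Pdgfrb, was more than 2-fold higher. Their summed level was 27.2 and 18.1 CPM, of which Thy1 made up 19.7 and 14.9, and Postn was at 0 in both libraries. The other fibroblast markers below the minimum for a ratio went both ways. Dcn had 0 counts in replicate 1 and 19 in replicate 2, and Lum had 0 and 1. Col1a2 had 6 and 1, and Col3a1 had 1 and 0. Of 6 blood cell markers, 3 had enough counts and 1, Csf1r, was more than 2-fold higher, from 95 counts and 1. Ptprc, which marks all white blood cells, had 5 and 4 counts and Adgre1 had 0 in both. Of 6 primitive endoderm markers, 5 had enough counts and 2, Gata6 and Dab2 (52 and 17 counts), were more than 2-fold higher. The summed level of the 6 was 18.2 and 10.6 CPM, of which Gata4 (log2 ratio 0.76) made up 14.0 and 7.65. Sox17 had 14 and 10 counts (0.34), and Sox7, below the minimum, had 7 and 4. Pdgfra was slightly lower in replicate 1, with 83 and 87 counts (-0.19, interval -0.64 to 0.26). Csf1r, and Gata6 with 16 and 5 counts, reached the minimum only through replicate 1.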

How the data were processed

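PolyA RNA of 2 Dicer_KO mESC libraries was sequenced in pairs of reads. The authors trimmed the reads, used STAR (2.4.2a) to align them to mm10 with multiple hits allowed, and took featureCounts (1.4.5-p1) totals over Ensembl genes, dropping reads where genes overlap. What they deposited are whole-number counts per gene, not normalized, and the versions are from the submitters' processing notes. The labels give 1 group of 2 libraries, so no model across genes was fitted and no p-value computed. TMM factors came from edgeR (4.0.16, R 4.3.3) over 43629 genes, and DESeq2 (1.42.0) size factors, total counts and raw counts were alternatives. Other choices tried were a pseudocount of 0.1, count minimums, fold thresholds and transcript lengths. Intervals used scipy (1.17.1). Lengths are the union of exons in GENCODE M21, of the same build, in which 1167 listed genes had no entry. The 115 genes of the lists were all matched. The scaling and ratio steps were tested on simulated data with as many genes raised as lowered. In these libraries more genes were beyond 2-fold higher than lower in replicate 1, a setting that was not simulated.

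The genes and lists were chosen with earlier results of these data known. Genes named are the 10 genes and Dicer1, any gene of lists of up to 6, and from longer lists the 3 with the most counts and the 3 with the largest ratio, with exceptions stated. Nothing says whether more than 1 culture stands behind each library.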

Additional observations from a re-analysis of the deposited data

How the results depend on the processing

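No paired analysis was possible because there is only 1 group. Over 51 results, 271 values were computed under alternatives. Of these, 17 moved by more than the counting interval, the spread between the libraries or, for numbers of genes, 1.5 times, and 0 changed sign. These totals include values that could not move. Leaving out 1 of 2 libraries never moves a mean beyond their SD, and a count minimum leaves the ratio of a single gene as it is. Numbers of genes, levels and shares cannot change sign. Of the 60 ratios of single genes, 6 moved, those of Tapbp, H2-K1 and H2-D1 under total counts or raw counts, and no ratio moved by more than 0.13. The number of the 10 genes more than 2-fold higher in replicate 1 was 5, and 2 at 4-fold. With a mean of at least 50 counts required, genes higher in replicate 1 numbered 7 among the other class I heavy chains, 3 among the trophoblast markers, 0 among the blood cell markers and 0 among the primitive endoderm markers, since fewer genes entered. The share of all genes past 2-fold at that minimum was not computed. With no filter on low counts, 2 fibroblast markers were higher and 2 lower. Scaling by total counts or raw counts put 2 blood cell markers past 2-fold. Without length correction, the mean share was 34.5% for Psmb8 and 9.29% for Psmb10, because the exon lengths of the partners differ. Leaving out each replicate in turn put the share of Psmb8 between 3.64% and 25.7%, that of Psmb9 between 0.638% and 3.08%, and that of Psmb10 between 13.1% and 20.8%, which are the values of the single libraries. The ratios between the libraries need both and have no such value. The neighbours of Psmb8 had medians between 0.06 and 0.11 with windows of 0.5 Mb and 2 Mb and, in an alternative chosen after seeing the data, 0.07 without the class I and II families. At this depth, the counts of Nlrc5 limit its ratio to an interval of 0.02 to 1.18.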

Other observations

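Genes whose promoter windows hold the letters searched above were also described over the whole table, matched by symbol. Of 429 genes with an ISRE core and enough counts, 81 were more than 2-fold higher in replicate 1 (18.9%), with a median log2 ratio of 0.07. Of 11589 genes without it, 1668 were (14.4%), with a median of 0.04. B2m, with a log2 ratio of 0.77, is the 1 gene among the 429 of the 10 genes the report centres on, and Psme1, Psmg4 and Erap1 of the other pathway lists are also among the 429. For the GAS letters the shares were 14.0% of 970 genes with them and 14.6% of 11048 without, and for the CCAAT box 13.6% of 5142 and 15.3% of 6876. No test was made on these shares, since the 2 libraries form 1 group.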
